A study of Mus musculus with 8 samples.

Results

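The 10 genes described here encode receptors and ligands of the tumor necrosis factor (TNF) family in activated mouse B cells. They were selected by name from the 53242 genes of the deposited tables and comprise the BAFF receptors Tnfrsf13b and Tnfrsf13c, the receptors Cd27, Tnfrsf1a, Tnfrsf1b, Tnfrsf14 and Tnfrsf18, and the ligands Lta, Ltb and Tnf. Splenic B cells came from C57BL/6 mice aged 8 to 12 weeks with the genotype Eif4a1 fl/fl CD23-cre (4A1 KO) or Eif4a1 +/+ CD23-cre (control), so both genotypes carried the Cre transgene, which acts from the splenic immature B cell stage. Cells of both genotypes spent 24 h on irradiated (120 Gy) CD40LB cells with IL4 (40 ng/ml). CD40LB is a feeder line that presents CD40 ligand and human BAFF, and these feeders were afterwards removed with an antibody to H-2Kd. RNA of 8 cultures, 4 of each genotype, was sequenced, with males of batch A as replicate 1, females of batch A as replicate 2, males of batch B as replicate 3 and females of batch B as replicate 4. The study left replicate 1 of both genotypes out of its differential expression because of reduced viability. Fold changes and means below come from replicates 2 to 4 of each genotype (n = 3), and ranges of CPM and counts cover all 8 libraries.

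Receptors of the TNF family have no enzymatic activity of their own and signal through adaptor proteins. BAFF-R, encoded by Tnfrsf13c, binds the cytokine BAFF and stabilises the kinase NIK (Map3k14), which drives processing of Nfkb2 in the noncanonical NF-kB pathway and supports the survival of mature B cells. TACI, encoded by Tnfrsf13b, binds BAFF and the related cytokine APRIL and is known for its part in class switching and antibody responses. TNF and lymphotoxin alpha homotrimers bind the receptors TNFR1 (Tnfrsf1a) and TNFR2 (Tnfrsf1b), while lymphotoxin alpha and beta together form a membrane ligand of the lymphotoxin beta receptor. EIF4A1 is an RNA helicase that unwinds mRNA during the initiation of translation.

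The 3 ligand genes are neighbours in the major histocompatibility complex region. On GRCm39, Ltb (ENSMUSG00000024399) occupied chr17:35413382-35415296 on the plus strand, Tnf (ENSMUSG00000024401) chr17:35418357-35420983 and Lta (ENSMUSG00000024402) chr17:35422141-35424327, both on the minus strand, with gaps of 3.1 kb and 1.2 kb between them. Cd27 (ENSMUSG00000030336, chr6:125209585-125213988) and Tnfrsf1a (ENSMUSG00000030341, chr6:125325566-125339632) lay 111.6 kb apart. Tnfrsf14 (ENSMUSG00000042333, chr4:155005126-155013020) and Tnfrsf18 (ENSMUSG00000041954, chr4:156110621-156113352) lay 1.1 Mb apart, and Tnfrsf1b was on the same chromosome (ENSMUSG00000028599, chr4:144938938-144973477). Tnfrsf13c was the 1 gene of the 10 on chromosome 15 (ENSMUSG00000068105, chr15:82105944-82108580). Tnfrsf13b (ENSMUSG00000010142, chr11:61017574-61040434) was on the chromosome of Eif4a1, 8.52 Mb from it.

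The 250 bases of GRCm39 before the transcript starts of Tnfrsf13c, Tnfrsf18 and Lta, the 3 genes whose difference between genotypes passed both thresholds, are shown 5′ to 3′ on the strand of the gene. Capitals mark TATAAA, read on either strand.
Tnfrsf13c, chr15:82108581-82108830, minus strand: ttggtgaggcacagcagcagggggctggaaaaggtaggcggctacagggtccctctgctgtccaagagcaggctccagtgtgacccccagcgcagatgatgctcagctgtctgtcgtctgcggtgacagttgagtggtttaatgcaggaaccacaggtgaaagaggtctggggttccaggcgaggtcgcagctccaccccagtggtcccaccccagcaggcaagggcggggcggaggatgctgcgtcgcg
Tnfrsf18, chr4:156110371-156110620, plus strand: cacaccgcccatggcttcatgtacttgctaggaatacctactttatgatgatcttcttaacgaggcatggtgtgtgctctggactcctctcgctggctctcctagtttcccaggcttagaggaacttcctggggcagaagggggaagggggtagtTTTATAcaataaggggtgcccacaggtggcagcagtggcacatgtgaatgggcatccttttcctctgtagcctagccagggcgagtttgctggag
Lta, chr17:35424328-35424577, minus strand: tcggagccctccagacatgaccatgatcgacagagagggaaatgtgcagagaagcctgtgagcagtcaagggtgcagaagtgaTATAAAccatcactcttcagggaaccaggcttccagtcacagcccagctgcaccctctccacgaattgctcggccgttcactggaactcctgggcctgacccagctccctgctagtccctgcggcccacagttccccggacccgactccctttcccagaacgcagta
The Tnfrsf13c sequence had a GC content of 63.2%, against 58.4% for Lta, 53.2% for Tnfrsf18 and a median of 53.2% over 21770 promoters of the same length. TATAAA was found on either strand in 11.9% of all these promoters and in those of Tnfrsf18, Lta and Tnf. The match began 167 bases before the start in Lta, 95 in Tnfrsf18 and 29 in Tnf. An NF-kB site, read as GGGA, any 2 bases and TTCC on either strand (1.30% of all promoters), and the octamer ATGCAAAT (1.49%) were not in this window in any of the 10 genes.

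Levels of different genes were compared in TPM, which are per transcript length, over replicates 2 to 4. In control cells Tnfrsf13c was the most abundant of the 10 genes with 309 ± 41.7 TPM (SD, n = 3), followed by Tnfrsf13b with 108 ± 14.0 TPM. The ligand Ltb (30.2 ± 18.1 TPM) and the receptor Tnfrsf14 (26.0 ± 4.41 TPM) came next and overlapped each other. Lta had 18.0 ± 1.03 TPM, below every value of Tnfrsf14. Tnf (11.8 ± 6.50 TPM) and Tnfrsf1b (11.4 ± 0.509 TPM) overlapped. Tnfrsf18, at 5.65 ± 2.41 TPM, was below every value of Tnfrsf1b but overlapped Tnf, which had 4.34 TPM in control 3. Cd27 (0.223 ± 0.0900 TPM) and Tnfrsf1a (0.0850 ± 0.0755 TPM) were at the bottom at no more than 4 and 8 counts per library, and no order between them is read. In 4A1 KO cells the order of the other receptors was the same, with Tnfrsf13c at 157 ± 11.4 TPM and Tnfrsf13b at 81.3 ± 12.0 TPM. In these cells Lta was at the level of Ltb, with 30.9 ± 2.13 TPM beside 30.9 ± 12.3 TPM. Lta, Ltb, Tnfrsf14 (25.8 ± 5.58 TPM) and Tnf (17.5 ± 2.56 TPM) formed a run of neighbours with overlapping values.

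**Figure D1:**
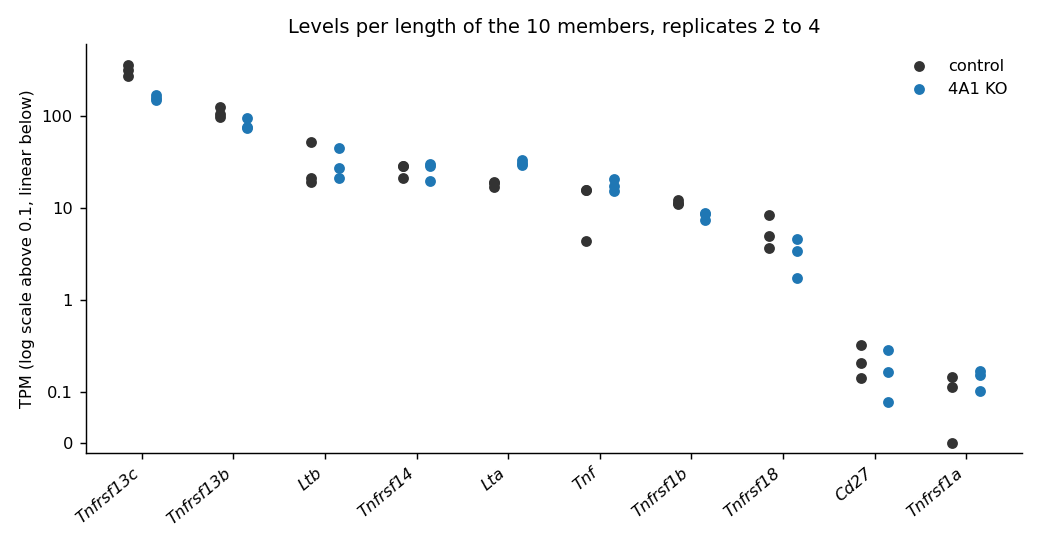
TPM (y axis, logarithmic above 0.1) of the 10 genes (x axis, in the order of their control means) in replicates 2 to 4, with 1 point per library, black for control and blue for 4A1 KO. Tnfrsf13c and Tnfrsf13b lie above all other genes in both genotypes, and Cd27 and Tnfrsf1a lie below 0.4 TPM in every library shown.

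Eif4a1, the targeted gene, was lower in every 4A1 KO library than in any control library. It had 828, 747, 936 and 888 counts per 1000000 counted reads (CPM) in control 1 to 4 and 593, 557, 635 and 691 CPM in 4A1 KO 1 to 4. Its log2 fold change was -0.44 (standard error 0.050, adjusted p = 1.2e-04, edgeR), and the counts covered the whole gene, not only the floxed exons 2 to 4. Library totals ran from 38488341 to 43210858 counts in replicates 2 to 4 and were 39890141 and 31727557 in control 1 and 4A1 KO 1. The B cell marker Ms4a1 had 521 to 652 CPM in the control libraries and 586 to 645 CPM in the 4A1 KO libraries (log2 fold change 0.072, adjusted p = 0.251, edgeR), and the B cell markers Cd79a, Cd79b, Cd22 and Blk fell. T cell markers summed to at most 0.625 CPM, with Cd3g and Cd247 at 0 in all 8 libraries, and NK cell markers to at most 1.11 CPM, with Ncr1, Klrb1c and Gzma at 0. The 10 fibroblast markers, chosen for the feeder cells, summed to 27.6 to 48.0 CPM in control and 23.3 to 35.3 CPM in 4A1 KO, with Postn and Lum at 0 (Fn1 rose and Col3a1 fell), and the 8 myeloid markers to 21.4 to 51.0 and 19.7 to 24.9 CPM, with S100a8 and S100a9 at 0 (Adgre1 rose and Mpeg1 fell). The part of these cell types in the values below was not tested.

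Of the 10 genes, 8 had enough counts to be tested among 14218 genes. Calls of a difference needed both an adjusted p under 0.05 and a log2 fold change beyond 0.5 in either direction, which 25.3% of these genes met. In 4A1 KO cells 2 of the 8 fell (Tnfrsf13c and Tnfrsf18) and 1 rose (Lta), where 13.7% of all tested genes fell and 11.6% rose. Another 2 (Tnfrsf13b and Tnfrsf1b) had an adjusted p under 0.05 with a smaller fold change, so that 5 of 8 passed the p threshold, which 53.0% of all tested genes did. The median log2 fold change of the 8 was -0.20, beside 0.0066 over all tested genes. With replicate 2, 3 or 4 left out 4 of the 8 were called each time, where 21.5%, 22.0% and 26.7% of all tested genes were. Without batch and sex in the fit, Tnfrsf13b (adjusted p = 0.0637, edgeR) and Tnfrsf18 (adjusted p = 0.173) no longer passed the p threshold. The TPM, tested with limma, gave the same 3 calls, where 20.2% of 12976 genes were called.

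**Figure D2:**
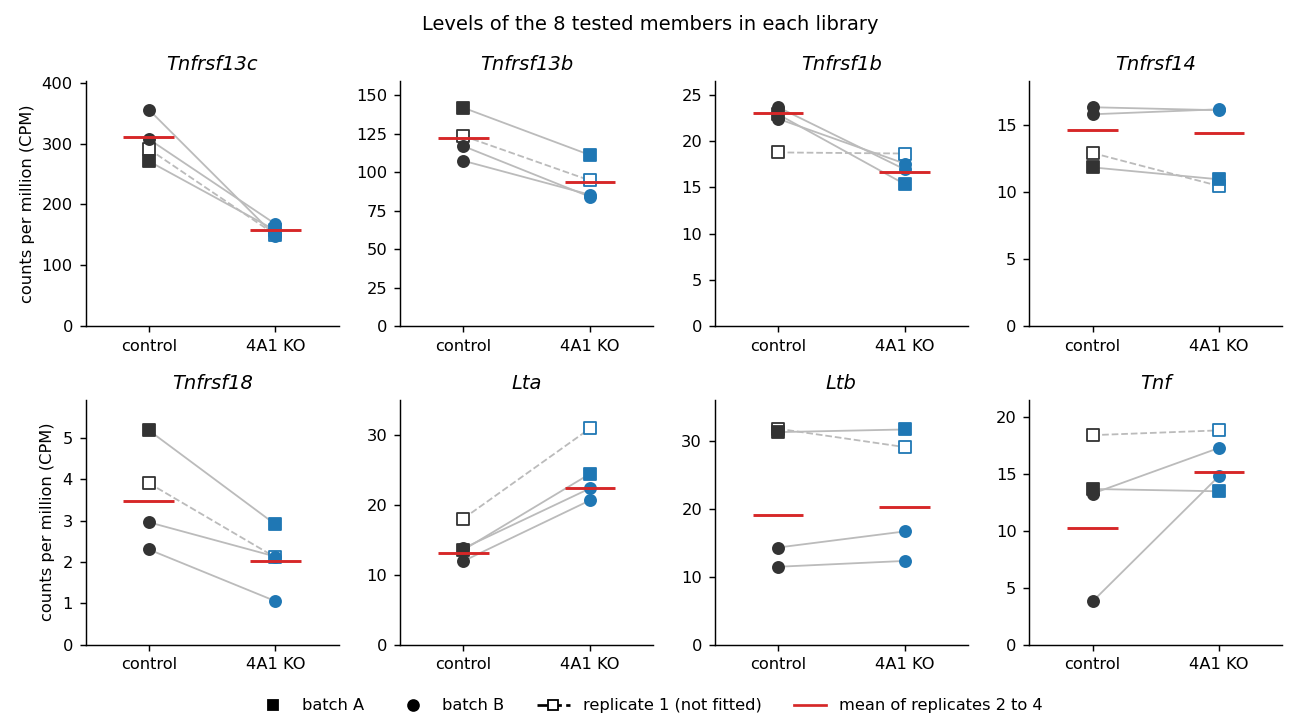
Levels of the 8 tested genes in CPM (y axis, starting at 0 in each panel) in control and 4A1 KO libraries, with lines joining libraries of the same replicate number. Squares are batch A, circles batch B, open squares with dashed lines replicate 1, and red bars the means of replicates 2 to 4. Tnfrsf13c and Lta separate by genotype in all 8 libraries, Ltb separates by batch, and control 3 is far below the other libraries for Tnf.

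Tnfrsf13c, encoding BAFF-R, had the largest decrease of the 8 genes. It had 291, 271, 356 and 307 CPM in control 1 to 4 and 150, 157, 148 and 168 CPM in 4A1 KO 1 to 4. All 4A1 KO libraries lay below all control libraries, and the 4A1 KO libraries were close to each other. The log2 fold change was -0.97 (standard error 0.083, adjusted p = 3.3e-05, edgeR), a fold of 0.510. Within pairs the change ranged from -41.9% in replicate 2 to -58.5% in replicate 3. Over all 8 libraries the difference in mean CPM had an exact permutation p of 0.0286 (two-sided), the smallest that 4 against 4 libraries can give. Genotypes did not overlap in 8 libraries for 36.9% of all tested genes.

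Tnfrsf13b, encoding TACI, was lower by a smaller amount that did not pass the fold threshold. It had 124, 142, 117 and 107 CPM in control and 94.6, 111, 84.0 and 85.3 CPM in 4A1 KO. Every 4A1 KO library was lower than the control of its own number, but 4A1 KO 2 lay above control 4. The fit gave a log2 fold change of -0.38 with a standard error of 0.052 (adjusted p = 3.5e-04, edgeR), or 1.30-fold lower. Without batch and sex in the fit the log2 fold change was again -0.38, but the adjusted p was 0.0637 (edgeR). Changes within pairs ranged from -20.6% to -28.2%. The exact permutation p over 8 libraries was 0.0571 in CPM and 0.0286 in TPM, in which the genotypes did not overlap.

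The level of Tnfrsf13c relative to Tnfrsf13b was examined because both receptors bind BAFF. The ratio of their TPM was 2.73, 2.16, 3.33 and 3.23 in control 1 to 4 and 1.82, 1.62, 2.00 and 2.25 in 4A1 KO 1 to 4. It was lower in 4A1 KO in 4 of 4 pairs, but 4A1 KO 4 exceeded control 2. The exact permutation p was 0.0571 (two-sided), and this test was chosen after the values had been seen. The third receptor of this group, Tnfrsf17 (BCMA), which is not one of the 10 genes, had at most 8 counts in any library and was not tested.

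Most markers of plasma cells, a cell type B cells can become, were lower in the same comparison. Of 6 plasma cell markers 5 were tested and 4 fell (Prdm1, Xbp1, Sdc1 and Mzb1), where 13.7% of all tested genes fell, while Jchain had a log2 fold change of 0.21 (adjusted p = 0.692, edgeR). In all 8 libraries the summed level of the 6 markers was 333 to 366 CPM in control and 129 to 180 CPM in 4A1 KO. Most of the control sum came from Xbp1 (128 to 165 CPM) and Mzb1 (155 to 176 CPM), and whether plasma cells were present was not tested. The part of this shift in the receptor levels was not tested, and in bulk RNA fewer cells of a type and less RNA per cell cannot be told apart.

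The genes whose levels followed those of the BAFF receptors most closely were sought among 8381 genes with at least 10 CPM, by the root mean square difference of centred log2 CPM over the 8 libraries. For Tnfrsf13b these were Tspan13 (0.050), Epsti1 (0.052) and Septin6 (0.061), where the median gene was at 0.304. For Tnfrsf13c they were Bcl2a1d (0.089), 1810009A15Rik (0.090) and Lbhd1 (0.092), where the median gene was at 0.518. Bcl2a1d belongs to a family of close copies among which reads may be split, and 1810009A15Rik lies within Lbhd1 on the same strand, so these 2 genes may share reads.

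Tnfrsf1b, encoding TNFR2, had a lower level in 3 of the 4 pairs and nearly the same level in the pair that the study left out. It had 18.8, 22.9, 22.4 and 23.7 CPM in control and 18.7, 15.4, 17.6 and 17.0 CPM in 4A1 KO. In replicate 1 the difference was -0.627%, while in replicates 2 to 4 it ranged from -21.6% to -33.0%. The fitted log2 fold change was -0.47 (standard error 0.082, adjusted p = 0.0014, edgeR), short of the fold threshold, and -0.35 when all 8 libraries were fitted. The 4A1 KO libraries still lay below all control libraries (exact permutation p = 0.0286, two-sided).

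Tnfrsf1a, encoding TNFR1, was close to absent from the counts. It had 8, 6, 2 and 5 counts in control 1 to 4 and 8, 6, 7 and 4 counts in 4A1 KO 1 to 4, or at most 0.252 CPM. Its groups overlapped, and no difference was detectable at this depth. Among the TNF receptors that bind TNF itself, Tnfrsf1b thus held nearly all of the transcripts per length in both genotypes, with 11.4 against 0.0850 TPM in control and 8.20 against 0.139 TPM in 4A1 KO.

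Cd27, the receptor of CD70 and a marker of memory B cells in humans, had 1, 0, 2 and 0 counts in control and 1, 3, 4 and 0 counts in 4A1 KO. A count of 0 allows up to 0.0741 CPM in control 2, 0.0694 CPM in control 4 and 0.0702 CPM in 4A1 KO 4, by counting error alone. Cd27 was not tested at these counts, and its gene overlaps Vamp1 on the opposite strand. The deposited TPM, made with another tool than the counts, did not follow them for this gene, with 0.206 TPM in control 2 and 0.320 TPM in control 4, where the counts were 0. The mean TPM was higher in control (0.223, against 0.175 in 4A1 KO) while the counts were higher in 4A1 KO, so no direction is read for Cd27, and no level beyond its place below 0.4 TPM. Its ligand Cd70 rose, with 1.98 to 3.22 CPM in control and 5.27 to 6.18 CPM in 4A1 KO (log2 fold change 1.16, standard error 0.14, adjusted p = 1.9e-04, edgeR).

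Tnfrsf14, encoding HVEM, the receptor of LIGHT and a binding partner of BTLA, showed no difference between genotypes larger than its spread. It had 12.9, 11.9, 16.4 and 15.8 CPM in control and 10.5, 10.96, 16.1 and 16.2 CPM in 4A1 KO. The libraries of batch B lay above those of batch A in both genotypes. Part of its transcript (798 of 2565 bases) matched another transcript at 90.9% identity, so some reads may be shared. The fitted log2 fold change was -0.027 (standard error 0.085, adjusted p = 0.812, edgeR), and the exact permutation p was 0.60. Btla, the partner of HVEM, rose from 114 ± 10.95 to 167 ± 4.66 CPM (SD, n = 3; log2 fold change 0.56, adjusted p = 1.5e-04, edgeR), and without replicate 2 its log2 fold change was 0.48, under the fold threshold (adjusted p = 0.0040, edgeR).

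Tnfrsf18, encoding GITR, was low and fell in 4A1 KO cells. It had 3.91, 5.19, 2.30 and 2.96 CPM in control and 2.11, 2.91, 1.05 and 2.13 CPM in 4A1 KO, from 43 to 210 counts. Each 4A1 KO library was below the control of its number, but the genotypes overlapped, and levels also differed between pairs. In the fit the log2 fold change was -0.79 (standard error 0.17, adjusted p = 0.0046, edgeR), or 1.73-fold lower. Without batch and sex in the fit, that is without the replicate block, the log2 fold change was -0.78 and the adjusted p 0.173, and 21.1% of all tested genes were then called. The exact permutation p over 8 libraries, which ignores the pairs, was 0.0571. The gene overlaps Gm16008 on the opposite strand, and its ligand Tnfsf18 had at most 11 counts.

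Lta, encoding lymphotoxin alpha, was the 1 gene of the 10 that rose. It had 18.0, 13.5, 13.8 and 11.9 CPM in control and 30.9, 24.4, 22.3 and 20.6 CPM in 4A1 KO. Every 4A1 KO library lay above every control library. In the fit the log2 fold change was 0.78 (standard error 0.081, adjusted p = 7.5e-05, edgeR), or 1.72-fold higher. Increases within pairs ranged from 62.3% to 80.4%, and the exact permutation p was 0.0286 (two-sided), the smallest possible.

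Ltb, encoding lymphotoxin beta, differed by batch and not detectably by genotype. It had 31.9, 31.4, 14.3 and 11.5 CPM in control and 29.2, 31.7, 16.7 and 12.3 CPM in 4A1 KO. All batch A libraries (29.2 to 31.9 CPM) lay above all batch B libraries (11.5 to 16.7 CPM). Between genotypes the log2 fold change was 0.12 (standard error 0.082, adjusted p = 0.265, edgeR). In TPM it was lower in both pairs of batch A and higher in both pairs of batch B. The genotype by batch term of the counts had an unadjusted p of 0.289 and an adjusted p of 1.00 in edgeR's test.

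Tnf had a higher mean in 4A1 KO that depended on 1 control library. It had 18.4, 13.7, 3.79 and 13.3 CPM in control and 18.8, 13.5, 14.8 and 17.3 CPM in 4A1 KO. Control 3, with 158 counts, lay far below the other 7 libraries, which ran from 13.3 to 18.8 CPM. The fitted difference of Tnf was 0.71 on the log2 scale (standard error 0.30, adjusted p = 0.0722, edgeR) and did not pass the threshold, and the exact permutation p was 0.257. Without replicate 3 it was 0.19. Without replicate 2 it was 1.10 (adjusted p = 0.0395, edgeR) and without replicate 4 it was 0.89 (adjusted p = 0.0121, edgeR), both past the threshold, as it was with no filter on low counts (adjusted p = 0.0383, edgeR).

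Of the 3 neighbouring ligand genes only Lta was called between genotypes. The log2 fold changes of Lta (0.78, standard error 0.081) and Tnf (0.71, standard error 0.30) were close, and the 3 genes were not compared by a test. Among the control libraries the TPM of Tnf relative to Lta were 0.853, 0.845, 0.231 and 0.929, and among the 4A1 KO libraries they were 0.508, 0.458, 0.555 and 0.701. The TPM of Ltb relative to Lta were 1.84, 2.78, 1.10 and 1.12 in control and 0.987, 1.35, 0.873 and 0.731 in 4A1 KO. With the exception of Tnf to Lta in replicate 3, both ratios were lower in 4A1 KO within each pair, and no test of these ratios was made. Both have Lta as denominator, which was higher in 4A1 KO in each pair, so these ratios do not show a change of Tnf or Ltb.

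**Figure D3:**
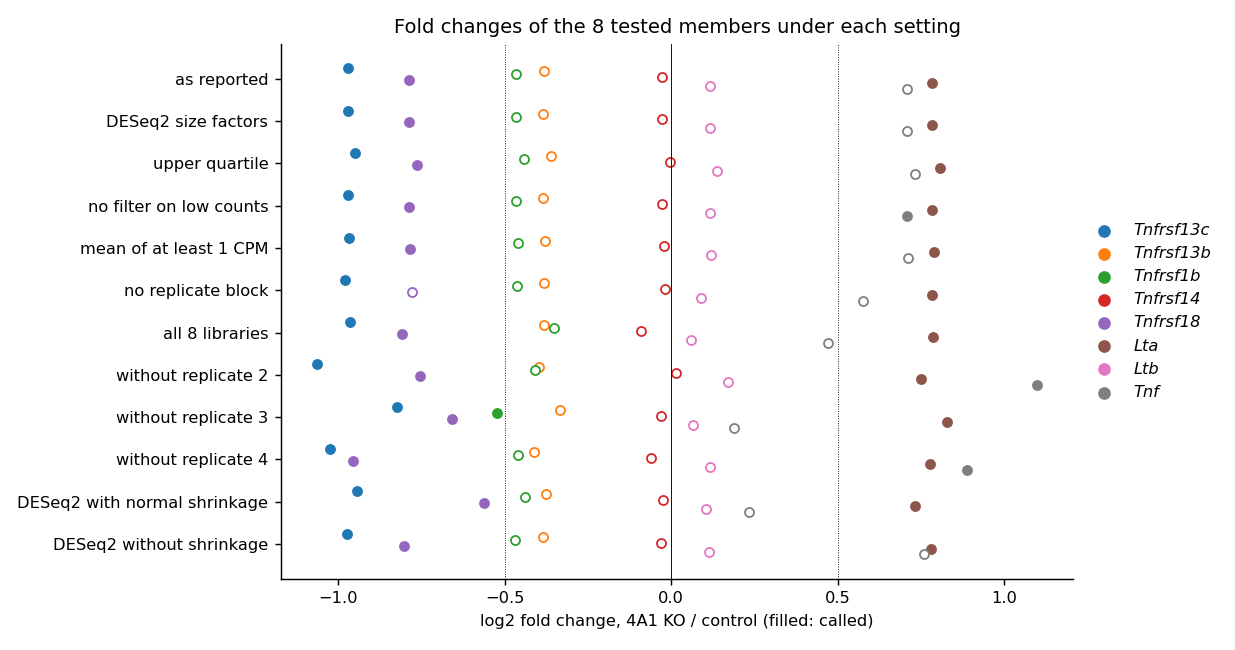
Log2 fold change of 4A1 KO over control (x axis) for the 8 tested genes under each setting of the count analysis (y axis), with filled points for genes called different and dotted lines at ±0.5. Tnfrsf13c and Lta keep their side of the threshold in each setting drawn, Tnfrsf18 loses its call without the replicate block, and Tnf moves between 0.19 and 1.10.

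Batch and sex were examined for the 8 tested genes in the edgeR fit over all 8 libraries, a comparison added after the data had been examined. Between batches 2 of the 8 were called, where 6.75% of all genes were. Ltb was lower in batch B by a log2 difference of -1.19 (standard error 0.10, adjusted p = 1.6e-04, edgeR) and Tnfrsf18 by -0.74 (standard error 0.14, adjusted p = 0.0047). Tnfrsf14 was higher in batch B by 0.48 (adjusted p = 0.0023), just under the fold threshold, and its batches did not overlap. Tnfrsf13b (-0.26) and Lta (-0.32) also had adjusted p under 0.05, and Tnfrsf13c (0.14), Tnfrsf1b (0.086) and Tnf (-0.48) did not. In the 6 libraries of replicates 2 to 4, where 4.51% of all genes were called between batches, Ltb was the 1 gene of the 8 called (-1.42, adjusted p = 3.8e-04, edgeR). Batch A is here replicate 2 alone, compared with replicate 4 once sex is fitted. A difference between batches thus cannot be told apart from one between these pairs. Tnfrsf18 (-0.65, adjusted p = 0.0729) lost its call and Lta (-0.22, adjusted p = 0.171) no longer passed the p threshold in these libraries. The difference of Tnf turned to 0.12, while Tnfrsf14 (0.48, adjusted p = 0.0247) and Tnfrsf13b (-0.40, adjusted p = 0.0088) stayed under an adjusted p of 0.05. Between sexes Lta was higher in males by 0.28 (adjusted p = 0.0436, edgeR), the 1 gene of the 8 under an adjusted p of 0.05, as were 6.88% of all genes. The males of replicate 1, which the study left out, had the highest Lta of each genotype (18.0 CPM in control and 30.9 CPM in 4A1 KO). The comparison of sexes was not repeated without them.

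The genotype effect was then compared between sexes and between batches with interaction terms over the 8 libraries. No gene of 14211 passed an adjusted p of 0.05 for the sex term in edgeR's test, and 405 had an unadjusted p under 0.05. Of the 8 genes, Tnfrsf13c had a male minus female term of -0.28 (unadjusted p = 0.0346, edgeR), a larger decrease in males, and Tnfrsf1b a term of 0.35 (unadjusted p = 0.0471), a smaller one, both with an adjusted p of 1.00. For the batch term 1 gene passed (0.00704% of those tested), 610 had an unadjusted p under 0.05, and none of the 8 did, with Tnf at 0.156.

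Other genes of the family were taken from lists of ligands and receptors. Of 15 other ligands 8 were tested, and 3 rose and none fell, with a median log2 fold change of 0.13. These 3 of 8 stand beside the 25.3% of all tested genes that were called. Tnfsf8, encoding CD30 ligand, rose from 0.173 to 0.301 CPM in control to 0.788 to 1.52 CPM in 4A1 KO (log2 fold change 2.26, standard error 0.29, adjusted p = 2.3e-04, edgeR), which were 7 to 12 and 25 to 65 counts. Tnfsf4, encoding OX40 ligand, rose from 1.94 ± 0.598 to 3.42 ± 0.330 CPM (SD, n = 3; log2 fold change 0.84, adjusted p = 0.0095, edgeR), and Cd70 is given above with Cd27. With all 8 libraries, and again without replicate 2, 4 of the other ligands were called, the fourth being Tnfsf9, the 4-1BB ligand, which was lower. Without replicate 3 only Cd70 and Tnfsf8 were called. Of 21 other receptors 16 were tested, and 2 rose and none fell, with a median of 0.066, and 25.3% of all tested genes were called. These were Tnfrsf4, encoding OX40, with 1.90 ± 0.470 CPM in control and 3.95 ± 0.693 CPM in 4A1 KO (log2 fold change 1.06, adjusted p = 7.5e-04, edgeR), and Tnfrsf12a, encoding the TWEAK receptor, with 1.17 ± 0.335 and 2.21 ± 0.323 CPM (0.93, adjusted p = 0.0061). Both the ligand and the receptor of the OX40 pair were among the genes that rose. For the CD30 ligand Tnfsf8 this did not hold, as its receptor Tnfrsf8 was at -0.21 (adjusted p = 0.0080, edgeR), short of the fold threshold. Another 6 receptors had an adjusted p under 0.05 without passing the fold threshold, among them CD40, the receptor engaged by the feeder cells (Cd40, -0.19, adjusted p = 0.0113). With all 8 libraries, and again without replicate 2, 4 of the other receptors were called (3 higher, 1 lower), where 25.6% of all genes were called with 8 libraries.

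**Figure D4:**
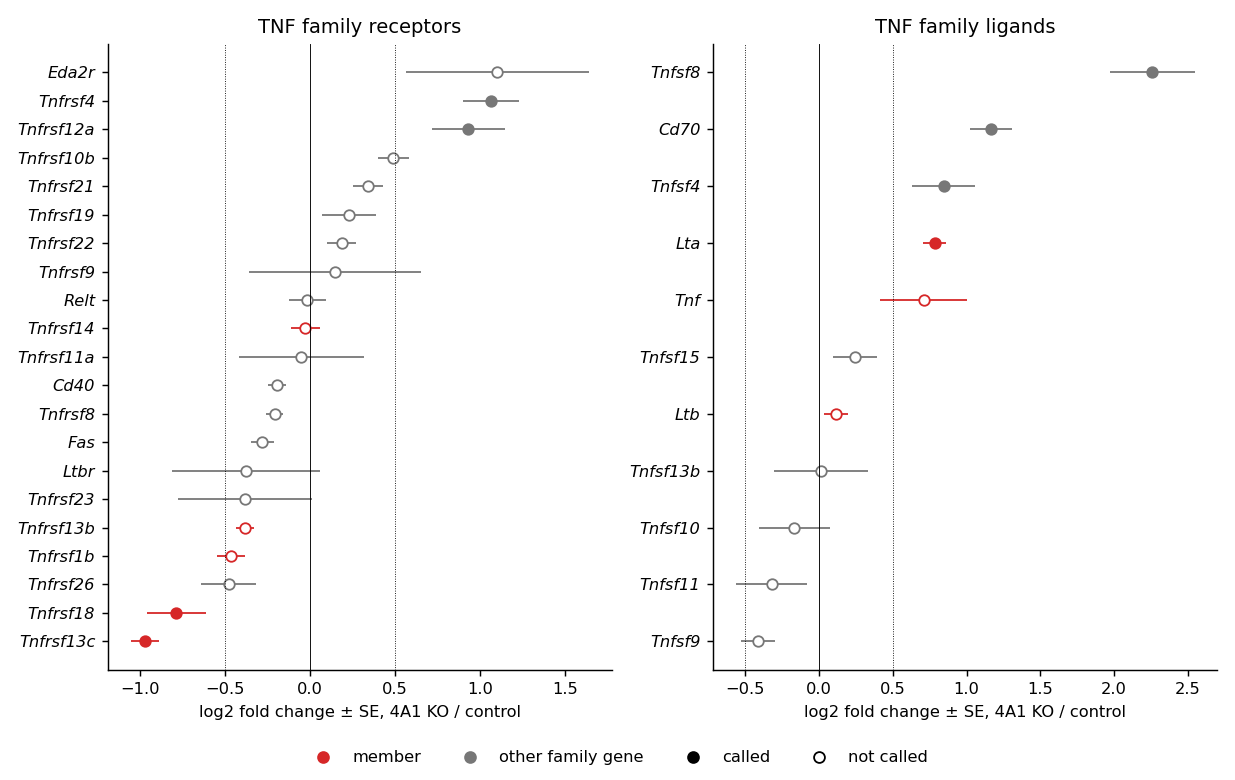
Log2 fold change of 4A1 KO over control (x axis, bars are standard errors) for each tested TNF family receptor and ligand (y axis), red for the genes described here and grey for other family genes, filled where called. The called receptors lie on both sides of 0, with Tnfrsf13c the lowest at -0.97, and the 4 called ligands, led by Tnfsf8 at 2.26, all lie above 0.

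The binding partners of the 10 genes were counted as a list of their own. Of 10 partners 5 were tested, and Cd70, also counted with the ligands, and Btla rose and none fell, beside 25.3% called over all tested genes. Without replicate 2 Cd70 was the 1 partner called. Mouse Tnfsf13b, encoding BAFF, had 0.472 ± 0.0699 CPM in control and 0.476 ± 0.0957 CPM in 4A1 KO (SD, n = 3; adjusted p = 0.972, edgeR), and Tnfsf13, encoding APRIL, had at most 1 count per library. Whether reads of the human BAFF of the feeder cells were counted was not tested.

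In the list for BAFF receptor and noncanonical NF-kB signaling all 12 genes were tested, and 1 rose and 1 fell, with a median log2 fold change of 0.076. These 2 of 12 stand beside 25.3% called over all tested genes. Relb, a subunit of the noncanonical NF-kB dimer, rose from 120 ± 18.0 to 204 ± 22.9 CPM (SD, n = 3; log2 fold change 0.77, standard error 0.054, adjusted p = 1.7e-05, edgeR). Traf5, an adaptor of several receptors of the family, fell from 28.4 ± 2.18 to 17.7 ± 2.66 CPM (-0.69, standard error 0.087, adjusted p = 2.2e-04). Another 7 passed the p threshold alone, with Nfkb2, the precursor of the other subunit, at 0.41 (adjusted p = 8.4e-05, edgeR) and Map3k14, the kinase NIK, at -0.32 (adjusted p = 0.0034). Of the 12 genes, 7 lay above 0 and 5 below.

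The list for TNFR1 and TNFR2 signaling had 24 genes, all tested, of which 2 rose and 4 fell, with a median of 0.067. Of all tested genes 25.3% were called, beside these 6 of 24. Mlkl, the effector of necroptosis, fell from 3.90 ± 0.867 to 1.57 ± 0.675 CPM (SD, n = 3; log2 fold change -1.33, standard error 0.18, adjusted p = 3.6e-04, edgeR). Fadd, the adaptor that recruits caspase-8, fell from 19.9 ± 1.70 to 11.4 ± 0.478 CPM (-0.79, adjusted p = 9.9e-05), and Casp8 itself fell from 55.0 ± 4.88 to 33.0 ± 4.93 CPM (-0.74, adjusted p = 3.5e-05). The other 3 called genes, named after their values were seen, were Tradd (-0.69), an adaptor of TNFR1, and Rnf31 (0.73) and Tnfaip3 (0.68), which act in linear ubiquitin signaling. Another 10 genes passed the p threshold alone, and Traf2, Birc2, Birc3 and Chuk were in this list and the one before.

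Shedding, secretion and mRNA decay of TNF family members were covered by 17 genes, all tested, of which 2 rose and none fell, with a median of 0.13. The 2 of 17 called stand beside 25.3% of all tested genes. Rc3h2, encoding roquin-2, rose from 21.1 ± 2.04 to 36.7 ± 2.86 CPM (SD, n = 3; log2 fold change 0.80, standard error 0.068, adjusted p = 3.2e-05, edgeR), and Zc3h12a, encoding the ribonuclease regnase-1, from 22.0 ± 2.83 to 33.5 ± 2.43 CPM (0.62, adjusted p = 1.6e-04). Another 8 passed the p threshold alone. Of these 6 were higher, from Hnrnpd (0.11) to Rhbdf2 (0.44), and 2 were lower, Zfp36l2 (-0.34) and Khsrp (-0.19). Zfp36l1, an mRNA decay factor of the family of Zfp36l2, was among the higher ones at 0.34 (adjusted p = 0.0015, edgeR).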

How the data were processed

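RNA of 8 cultures of activated splenic B cells, 4 per genotype, was analysed. The authors trimmed the reads with Trim Galore 0.6.6, mapped them to GRCm39 with HISAT2 2.1.0, counted them with Seqmonk over merged isoforms with the strand taken into account, and deposited raw counts per gene. The deposited TPM were calculated by the authors with StringTie 2.1.1. How reads mapping to several places were counted is not given in the sources used here.

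Counts were fitted in R 4.3.3 with edgeR 4.0.16 (quasi-likelihood test, TMM, filterByExpr by genotype) on replicates 2 to 4 with batch, sex and genotype. In these 6 libraries batch and sex equal the replicate number as a block. The numbers pair the libraries because each stands for 1 batch and sex in the labels, and deviations from the genotype mean correlated at 0.488, 0.403 and 0.333 within pairs. P-values were adjusted over all genes with the Benjamini-Hochberg method and calls needed an adjusted p under 0.05 together with a log2 fold change beyond 0.5 in either direction. TPM were tested with limma 3.58.1 on log2(TPM + 1) where the mean reached 1 TPM, so that fold changes of low genes are understated there. CPM are per 1000000 counted reads of a library, and floors and SDs do not include other errors. Single genes were also compared over 8 libraries with exact two-sided permutation tests. Positions and promoters came from GENCODE M39 on GRCm39. The code was tested on simulated data.

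The members and gene lists were chosen with earlier results of these data known. Named are the 10 members, all called ligands, receptors and partners, the 3 called genes of each other list with the largest change, and the 3 genes nearest in pattern to each BAFF receptor. Tnfrsf17, the marker genes and other genes below these thresholds were named after their values were seen. Alternatives were other normalizations (DESeq2 size factors, upper quartile), filters, pseudocounts (0.1), DESeq2 1.42.0, no replicate block, all 8 libraries, and leaving out each replicate number. The summed level of the B cell marker list is not reported here.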

Additional observations from a re-analysis of the deposited data

Results flagged for a closer look

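Of 48 groups of 4 libraries examined, 2 held a library far from the other 3, where chance gives about 2.4, and both concerned Zc3h12a in replicate 1, the replicate that the study left out. Control 1 had 52.5 CPM where the nearest control library had 24.5 CPM, a gap of 0.835 of the range of the group. 4A1 KO 1 had 72.4 CPM where the nearest 4A1 KO library had 36.1 CPM, a gap of 0.883 of the range. About 1 in 20 groups exceeds the critical value by chance.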

How the results depend on the processing

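The 8 tested genes were recomputed in 88 combinations of gene and setting in counts, of which 82 kept their direction and their side of the threshold. Tnfrsf13c and Lta kept their call in each setting run. Without the replicate block Tnfrsf18 lost its call in counts (-0.78) and in TPM (-0.66, adjusted p = 0.161, limma), the number of members called was 2, and no other call of a member changed. Tnfrsf13b, short of the fold threshold with and without the block, then no longer passed the p threshold in counts (adjusted p = 0.0637, edgeR). Leaving out 1 replicate number gave -1.06 to -0.82 for Tnfrsf13c, -0.96 to -0.66 for Tnfrsf18, 0.75 to 0.83 for Lta, -0.52 to -0.41 for Tnfrsf1b, which passed the fold threshold without replicate 3 (-0.52), and 0.19 to 1.10 for Tnf. Tnf was called with no filter on low counts (0.71), without replicate 2 (1.10, in TPM 1.06) and without replicate 4 (0.89). Values near 0 changed sign with a replicate left out, from -0.061 to 0.014 for Tnfrsf14 (in TPM -0.052 to 0.021) and from -0.015 to 0.26 for Ltb in TPM, as did the mean difference of Ltb over 8 libraries in TPM (exact permutation p = 0.971). The exact permutation p of Tnfrsf13b was 0.0286 in TPM. Other receptors called numbered 4 with all 8 libraries and 2 to 4 when a replicate was left out, other ligands 2 to 4, partners 1 to 2 and members 4 in each case, where 21.5% to 26.7% of all tested genes were called. Cd27 and Tnfrsf1a had adjusted p of 0.527 and 0.724 (edgeR) with no filter, on at most 4 and 8 counts. The causes were not tested.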
